A study of Homo sapiens with 4 samples.

Results

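The poly(A) clusters of long noncoding RNA (lncRNA) genes were followed in a PAS-seq series on 2 human cell lines of esophageal squamous cell carcinoma, KYSE30 and TE-1. PAS-seq sequences the 3′ ends of polyadenylated RNA, so each cluster (PAC) marks a place where transcripts were cleaved and polyadenylated, and its dominant site is the base with the most tags. A PAC was taken as an lncRNA PAC when its TPM was above 1 in at least 1 library and its dominant site, in the library with the highest TPM, lay in an exon of a GENCODE 44 lncRNA gene on the same strand and in no exon of a protein-coding gene on that strand. The 7 PACs of NEAT1 and MALAT1 were left out. This gave 932 PACs in 805 lncRNA genes, or 5.29% of the 17627 PACs of the series, and 96 of these genes had at least 2 lncRNA PACs. For comparison, 13692 PACs lay in 3′ UTRs of protein-coding genes. Per line, 1 library came from cultures treated with l-lactate (20 mM, 24 h) and 1 from control cultures, which received PBS. In 1 label field the control samples carry the line names KYSE32 and TE-3, but the names KYSE30 and TE-1 of their titles and of the study were kept. TPM is a PAC's tag number scaled to a common library total. A transcript gives a tag only at its end, so TPM can be set side by side between genes without scaling by length.

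Most lncRNAs are made by RNA polymerase II, are capped and spliced like mRNAs, and end at a poly(A) signal that is read by the same cleavage and polyadenylation machinery. They are usually less abundant than mRNAs and more restricted to certain cell types. Several classes are known: hosts of small nucleolar RNAs (snoRNAs), which carry snoRNAs in their introns, hosts of microRNAs, transcripts antisense to a coding gene, transcripts that start back to back with a coding gene (divergent transcripts, symbols ending in -DT) and intergenic transcripts (symbols starting with LINC).

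The 30 nt that end at the dominant site are shown for PACs that recur in the results, read from the GRCh38 genome on the transcribed strand. Capitals mark AATAAA or ATTAAA, the DNA forms of the main poly(A) signal and its most common variant. The first 3 are abundant in both lines, the next 3 were restricted or nearly restricted to KYSE30, LINC00665 and HCP5 were listed in TE-1 alone, and the last 5 had lower or higher TPM with l-lactate in both lines.
SNHG29 (chr17:16441988-16442017, plus strand): tactacAATAAAggatggtcttgggtgtca
ZFAS1 (chr20:49289228-49289257, plus strand): tgcataaagaaAATAAAatcttttaaatca
NORAD (chr20:36045623-36045652, minus strand): taaaaAATAAAggttattttaaaagcctgt
MIR205HG (chr1:209432517-209432546, plus strand): tgtaaaaactaaaagttgcttgtctactga
UCA1 (chr19:15835390-15835419, plus strand): cgccacctacATTAAAgctaatatgcctga
LINC02999 (chr5:134429051-134429080, minus strand): ttaAATAAAtttgtatgcctttttctccta
LINC00665 (chr19:36324909-36324938, minus strand): gctaAATAAAcggattcttcatgtgtctca
HCP5 (chr6:31465676-31465705, plus strand): tgaAATAAAggaatttaatattctatagta
IGFL2-AS1 (chr19:46189029-46189058, minus strand): gttccccgggcccagctgttttttctttta
DLEU2 (chr13:50043910-50043939, minus strand): gaaaatcattaggaagtggtagaaacttta
LINC00958 (chr11:12961844-12961873, minus strand): gtccATTAAAatcagtccagatcttcttta
ELOA-AS1 (chr1:23760518-23760547, minus strand): agagATTAAAgtgctggattttaaatgtct
OIP5-AS1 (chr15:41298280-41298309, plus strand): cttaattataaagacatcattttgcaagca
In MIR205HG, IGFL2-AS1, DLEU2 and this OIP5-AS1 site neither hexamer was found in the 30 nt shown, and UCA1, LINC00958 and ELOA-AS1 had ATTAAA only.

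These libraries hold 7174991 tags (KYSE30, l-lactate), 7425554 (KYSE30, control), 8468958 (TE-1, l-lactate) and 10393799 (TE-1, control), as computed from the smallest step in TPM. A library lists no PAC below 1.06 to 1.12 TPM, or 8 to 11 tags. A PAC that is not listed may therefore be present below that level. Per the study, clusters of a single site were removed at a higher TPM limit. A PAC of that kind may be unlisted although its TPM is above that level. For a single PAC, neither a fold nor a fitted log2 difference is given against a line that does not list it. Adjusted p-values and medians of the fitted differences do include such PACs, with unlisted values at 0. The l-lactate effect of a line that lists a PAC in neither library is then 0 in the fit, whatever its true value. Of the epithelial markers, KRT8, KRT18, EPCAM and DSP were listed in all 4 libraries, KRT6A and SOX2 in KYSE30 only and KRT17 in TE-1 only. KRT5, KRT14 and TP63, which mark basal squamous cells, were listed in none. CDH1 was at 228 and 204 TPM in KYSE30 and at 1.30 TPM and unlisted in TE-1, and KRT19 followed the same pattern. Of the markers of other cell types, PTPRC, CD3E, COL1A2, PECAM1 and VWF were unlisted, and COL1A1 was listed in TE-1 alone, at 4.84 and 5.39 TPM. With 1 library per condition in each line, there is no replicate within a line. Since RNA was taken from bulk cultures, fewer cells that make a transcript and less of it per cell cannot be told apart.

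lncRNA PACs were fewer and lower than coding ones and differed more from library to library in which of them were listed. The libraries listed 687, 711, 622 and 643 of the 932, in the order KYSE30 l-lactate, KYSE30 control, TE-1 l-lactate and TE-1 control, which is kept wherever 4 values follow. Their median mean TPM was 3.59, against 14.3 for PACs in coding 3′ UTRs. Together they held 1.91%, 1.92%, 1.41% and 1.43% of the listed TPM. All 4 libraries listed 416 lncRNA PACs, that is 44.6%, against 70.0% of all PACs and 77.4% of those in coding 3′ UTRs. Among PACs with a mean TPM of at least 5, where the listing limit matters less, the shares were 78.7% of 357 lncRNA PACs and 91.8% of all PACs.

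Before lncRNA sites the shares with a poly(A) signal were slightly lower than before coding sites, mostly with overlapping intervals, and TGTA was less frequent. AATAAA was present in the last 50 nt before the site in 594 of 932 lncRNA PACs, or 63.7% (95% Wilson interval 60.6% to 66.8%), and in 66.6% of coding 3′ UTR PACs (65.8% to 67.4%). With ATTAAA counted as well, the shares were 80.5% (77.8% to 82.9%) and 83.4% (82.8% to 84.0%), and neither was found in 19.5% and 16.6%. The intervals overlapped for AATAAA and, at their edges, for either signal. Among PACs above 5 TPM in at least 1 library, the shares with either were 80.9% (77.6% to 83.9%) and 84.7% (84.0% to 85.3%). These intervals did not overlap. The end of AATAAA lay a median of 16 nt from the site in both sets. TGTA, the DNA form of the UGUA element bound by the CFIm complex, was found within 100 nt upstream in 49.7% of lncRNA PACs (46.5% to 52.9%) and 58.0% of coding 3′ UTR PACs (57.2% to 58.8%). The intervals for TGTA did not overlap. All motifs were sought on the transcribed strand only, and a match describes the letters in the window, not binding.

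The dominant site of 689 lncRNA PACs (73.9%) lay within 24 nt of an annotated transcript end, as did 65.9% of coding 3′ UTR PACs, and the other sites lay further away. In 911 of the 932 the site was in a last exon. At least 7 A among the 10 nt downstream, in a row or not, were present at 12 sites (1.29%) and at 1.45% of coding 3′ UTR sites. In such a stretch the primer can bind inside a transcript. Reads of neighbouring genes could reach some PACs: 75 lay within the body of a coding gene on the same strand, 54 within 5000 nt past the end of a coding gene, and 206 opposite a coding gene. In 11, none of the 32-mers tested near the site was unique in the genome, and their assignment to a gene is uncertain.

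A few genes held a large part of the lncRNA tags. The 10 PACs with the highest mean TPM held 57.8%, 54.9%, 47.3% and 45.6% of the lncRNA TPM, and 7 of them belong to snoRNA hosts. SNHG29 was the highest of all, at 4877 and 4962 TPM in KYSE30 and 2597 and 2556 in TE-1. ZFAS1 (678, 716, 1044 and 1009 TPM) and GAS5 (442, 445, 1161 and 1043 TPM) ran the other way, with every TE-1 library above every KYSE30 library. NORAD, a single-exon RNA known to bind PUMILIO proteins, was at 530, 597, 295 and 347 TPM. SNHG25, SNHG1 and SNHG16 lay between 198 and 390 TPM in every library, and SNHG6 was at 436, 378, 245 and 196 TPM. MIR205HG and UCA1 completed the group and are described with the line differences.

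**Figure D1:**
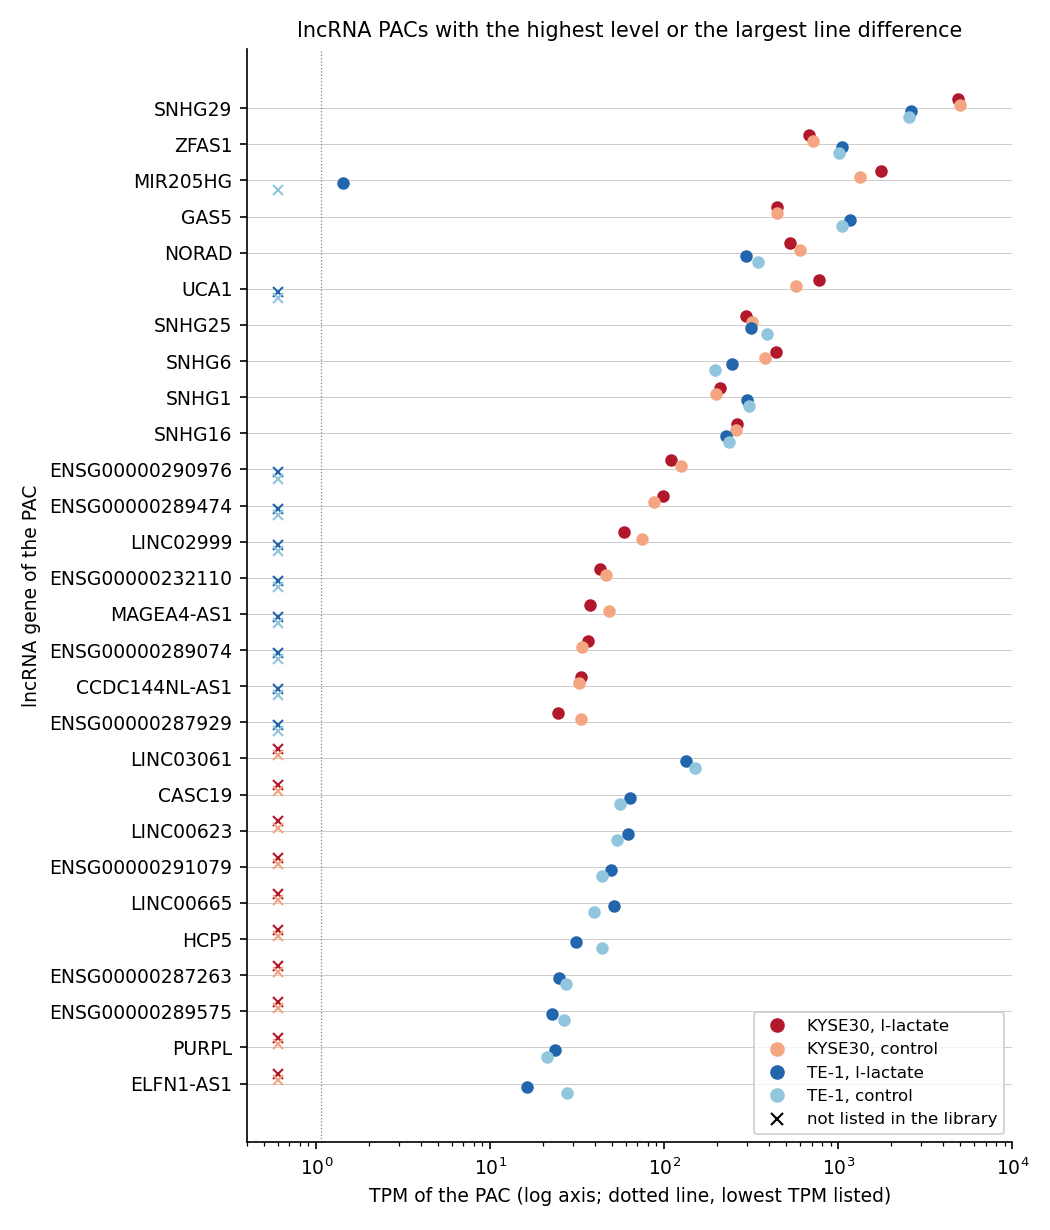
TPM (log axis) of the 10 lncRNA PACs with the highest mean TPM and of those with the largest differences between the lines; each point is 1 library, and crosses left of the dotted line mark libraries that do not list the PAC. The snoRNA hosts lie above 190 TPM in all 4 libraries, MIR205HG goes from 1766 and 1331 TPM in KYSE30 to 1.42 TPM and unlisted in TE-1, and the lower rows are listed in only 1 of the lines.

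The lines were compared first, since KYSE30 and TE-1 differ in origin and state. A PAC was tested with limma on log2(TPM + 1) over the 4 libraries with treatment as covariate, on all 16709 PACs with a mean TPM of at least 1, and adjusted p-values are those of Benjamini and Hochberg over all of these. The error of this fit comes from how far the l-lactate effects of KYSE30 and TE-1 stood apart. Of the 838 lncRNA PACs tested, 578 passed an adjusted p of 0.05, that is 69.0%, where 64.8% of all PACs tested passed. In TE-1, 244 were higher (29.1%, against 31.8% of all PACs), and in KYSE30, 334 were higher (39.9%, against 33.0%). The sizes of the differences stood further apart than these counts: the median absolute log2 difference was 1.49 for lncRNA PACs and 0.83 for all PACs. Unlisted PACs entered these medians at 0, and lncRNA PACs had lower TPM and were more often listed in 1 line alone. The medians were not compared at equal TPM. The median signed log2 difference, TE-1 minus KYSE30, was -0.27 for lncRNA PACs and -0.01 for all PACs.

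Across the 416 lncRNA PACs listed in all 4 libraries, treated and control TPM correlated with a Spearman's rho of 0.943 in KYSE30 and 0.925 in TE-1. Between the lines, rho was 0.584 for the controls and 0.571 for the l-lactate libraries. The 12344 PACs of any kind listed in all 4 libraries gave 0.985 within each line and 0.810 and 0.819 between the lines. PACs are not independent replicates and the lower TPM of lncRNA PACs carries more counting error, so these values describe the libraries.

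Being listed in 1 line alone was more frequent among lncRNA PACs. Both KYSE30 libraries and neither TE-1 library listed 179 of the 932 lncRNA PACs (19.2%), against 9.27% of all PACs. For TE-1 alone the number was 141 (15.1%, against 8.32%). With a mean TPM of at least 5, the shares were 7.28% and 10.6% of lncRNA PACs and 3.13% and 3.30% of all PACs. In 18 of the PACs found in KYSE30 alone and 11 of those found in TE-1 alone, the other line listed a different PAC of the same lncRNA gene.

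MIR205HG and UCA1 were abundant in KYSE30 and near or under the listing limit in TE-1. MIR205HG is the host transcript of miR-205, a microRNA of squamous and basal epithelium. Its main PAC was at 1766 and 1331 TPM in KYSE30, at 1.42 TPM (12 tags) in treated TE-1, and unlisted in the TE-1 control (adjusted p = 0.000568). UCA1, an RNA first described in bladder cancer, was at 773 and 571 TPM in KYSE30 and unlisted in TE-1 (adjusted p = 0.000495). Neither gene's values overlapped between the lines.

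The other large falls from KYSE30 to TE-1 were all in PACs that neither TE-1 library listed. LINC02999 was at 58.8 and 74.1 TPM in KYSE30, and MAGEA4-AS1, antisense to a cancer-testis antigen gene, at 37.4 and 48.2 TPM. The genes with no symbol ENSG00000290976 and ENSG00000289474 were at 109 and 124 TPM and at 98.0 and 87.0 TPM. The first of these ends within 5000 nt past a coding gene on the same strand. ENSG00000232110, ENSG00000289074, CCDC144NL-AS1 and ENSG00000287929 lay between 24.4 and 46.1 TPM in KYSE30, and ENSG00000232110 lies within a coding gene on the same strand. All 8 had an adjusted p of at most 0.000851.

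In the other direction, LINC03061 was highest, at 133 and 149.4 TPM in TE-1 and unlisted in KYSE30 (adjusted p = 0.000531), but its 3′ end sequence occurs at more than 1 place in the genome. LINC00623 (61.8 and 53.2 TPM), LINC00665 (51.6 and 39.4 TPM) and HCP5 (31.1 and 43.6 TPM), a transcript of the MHC class I region, were also listed in TE-1 alone. PURPL, which p53 is known to induce, was at 23.6 and 21.2 TPM and ELFN1-AS1 at 16.3 and 27.5 TPM. CASC19, in the gene-poor region upstream of MYC, had 8 PACs, and all 8 were listed in both TE-1 libraries and in neither KYSE30 library. The highest of them was at 63.5 and 55.7 TPM and the lowest at 2.83 and 1.35 TPM. ENSG00000291079, ENSG00000287263 and ENSG00000289575 made up the rest of the largest rises, at 22.6 to 49.1 TPM in TE-1.

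Where both lines listed a PAC, folds can be given from the mean TPM of each line. TP53TG1, a p53 target, was at 100.1 and 81.7 TPM in KYSE30 and 11.9 and 8.95 TPM in TE-1, 8.71-fold higher in KYSE30 (log2 difference -3.01 ± 0.09, SE, adjusted p = 0.000655). LINC00511 (67.7, 73.8, 7.68 and 4.04 TPM) and LINC01503 (56.9, 57.9, 4.96 and 6.45 TPM) were 12.1-fold and 10.1-fold higher there. HOTAIR, from the HOXC cluster, was unlisted and at 4.04 TPM in KYSE30 and at 23.5 and 20.4 TPM in TE-1 (adjusted p = 0.0168). Another pair of genes was chosen after the values were seen. HOTAIRM1, from the HOXA cluster, was at 69.7, 97.6, 12.99 and 16.7 TPM, with both KYSE30 values above those of TE-1. ENSG00000260196, which ends within 5000 nt past a coding gene, was at 2.65, 2.69, 57.2 and 59.0 TPM, 21.7-fold higher in TE-1.

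Of the gene classes, the snoRNA hosts were most often listed in both lines. All 31 PACs of the 26 host genes were tested, and 28 of them (90.3%) were listed in all 4 libraries. With a mean TPM of at least 5, 78.7% of lncRNA PACs and 91.8% of all PACs were listed in all 4. The hosts had a median mean TPM of 70.2, against 3.59 for all lncRNA PACs, and the part of level in their listing was not tested. They held 46.4%, 46.7%, 56.8% and 55.1% of the lncRNA TPM. In TE-1, 16 were higher and in KYSE30, 6 (against 31.8% and 33.0% of all PACs), and 9 did not pass, with a median log2 difference of 0.39 against -0.01 for all PACs. GAS5 was 2.48-fold higher in TE-1 (log2 difference 1.31 ± 0.06, adjusted p = 0.000978), DANCR 3.32-fold (52.5, 50.8, 155 and 188 TPM) and SNHG17 4.05-fold (29.4, 27.3, 119 and 111 TPM). SNHG29, by far the most abundant, was 1.91-fold higher in KYSE30 (-0.93 ± 0.04, adjusted p = 0.000938), and SNHG6 was 1.85-fold higher there. Only SNHG14 (16.2 and 12.3 TPM) and SNHG4 (4.84 and 5.58 TPM, within a coding gene on the same strand) were listed in TE-1 alone. AATAAA was present upstream of 83.9% of these sites.

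The microRNA hosts had 26 PACs in 21 genes, of which 22 were tested. In TE-1, 6 were higher, in KYSE30, 10 were higher, and 6 did not pass, where 31.8% and 33.0% of all PACs were higher in these lines. MIR200CHG, the host of miR-200c and miR-141, which restrain the mesenchymal state, was at 15.6 and 21.3 TPM in KYSE30 and unlisted in TE-1 (adjusted p = 0.00105). Its PAC lies within 5000 nt past a coding gene. MIR4458HG (3.35, 3.91, 18.2 and 15.9 TPM) and MIR17HG, the host of the miR-17-92 cluster (5.30, 1.89, 8.97 and 8.95 TPM), were higher in TE-1. MIR23AHG, at 34.7, 37.0, 30.9 and 30.8 TPM, did not pass (adjusted p = 0.122). PAS-seq measured the host transcripts and not the microRNAs. Mature microRNAs of MIR205HG and MIR200CHG are shown from RefSeq (GRCh38.p14), since these hosts separated the lines. Capitals mark the seed, bases 2 to 8, which pairs with targets.
hsa-miR-205-5p (in MIR205HG): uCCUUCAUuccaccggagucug
hsa-miR-200c-3p (in MIR200CHG): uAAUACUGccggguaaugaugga
hsa-miR-141-3p (in MIR200CHG): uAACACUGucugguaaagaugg
The miR-205 precursor ends upstream of the main poly(A) site of its host, as its mature 3p arm lies at chr1:209432203-209432223 and the site at position 209432546. In all, 32 lncRNA genes with a PAC hold a microRNA hairpin of the RefSeq annotation.

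Among lncRNAs studied in cancer or hypoxia, 31 of 58 listed genes had an lncRNA PAC, 49 PACs in all. Of the 46 tested, 20 were higher in TE-1, 16 were higher in KYSE30 (against 31.8% and 33.0% of all PACs) and 10 did not pass. The 8 CASC19 PACs are part of the first count. PVT1, the neighbour of MYC, was at 32.9, 31.6, 27.5 and 25.3 TPM and did not pass (adjusted p = 0.0654). CRNDE was higher in TE-1 (19.9, 28.95, 43.0 and 44.7 TPM, adjusted p = 0.012), and CASC9 was higher in KYSE30 (12.1, 8.08, 2.13 and 2.41 TPM, adjusted p = 0.00608). H19, HOTTIP and MIR31HG were each listed in a single library, between 3.35 and 3.78 TPM.

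Antisense and divergent lncRNAs, like lncRNA PACs as a whole, were more often higher in KYSE30 than in TE-1. Of 175 antisense PACs tested, 42 were higher in TE-1 and 76 in KYSE30, and of 82 divergent PACs, 15 and 35. The median log2 difference was -0.42 for antisense and -0.77 for divergent PACs, against -0.27 for all lncRNA PACs and -0.01 for all PACs. Intergenic lncRNAs (110 tested) were split more evenly, with 38 higher in TE-1 and 42 in KYSE30, and genes with no symbol (304 tested) gave 84 and 114. Among all PACs tested, 31.8% were higher in TE-1 and 33.0% in KYSE30. Among all 838 lncRNA PACs tested, 244 (29.1%) and 334 (39.9%) were.

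A lncRNA named after a coding gene can be set beside that gene, with the TPM of all its PACs summed. Over 123 antisense PACs with a listed partner, the line differences of lncRNA and partner had a Spearman's rho of 0.54, and of 77 antisense PACs that passed, 55 differed in the same direction as the partner. For 72 divergent PACs rho was 0.55, and 32 of 42 went the same way. All pairs come from the same 4 libraries, so no test was made. ITGB8-AS1 (21.2, 19.9, 1.18 and 1.44 TPM) and the integrin gene ITGB8 (53.5, 49.4, 7.08 and 5.68 TPM) were both lower in TE-1. MAGEA4-AS1 and MAGEA4 (720 and 711 TPM in KYSE30) were both unlisted in TE-1. Both PACs of ZNF232-AS1 and the gene ZNF232 (8.92, 8.48, 32.4 and 33.1 TPM) were higher in TE-1.

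Other pairs went apart. ZMPSTE24-DT (24.1, 38.4, 4.13 and 4.62 TPM) was 7.14-fold higher in KYSE30, and ZMPSTE24 (125, 108, 109 and 87.5 TPM) had a log2 difference of -0.25. EIF3J-DT did not pass (8.78, 13.9, 8.38 and 10.6 TPM, adjusted p = 0.293), whereas EIF3J had a log2 difference of 1.57. THUMPD3-AS1 had PACs of both kinds: its downstream PAC was higher in KYSE30 (23.7, 23.7, 4.37 and 5.68 TPM, adjusted p = 0.00183) and its upstream PAC higher in TE-1 (3.21, 2.96, 8.97 and 7.12 TPM, adjusted p = 0.00846).

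The second comparison, l-lactate against control, asked whether lactate, which the study examined as a regulator of poly(A) site choice, changed lncRNA PACs in both lines. The same limma fit, with line as covariate, called 0 of 838 lncRNA PACs and 0 of 16709 PACs (0.0%) at an adjusted p of 0.05. At an unadjusted p under 0.05 there were 64 lncRNA PACs (7.64%, against 7.25% of all PACs). IGFL2-AS1, which ranked first among the PACs with a mean TPM of at least 5 that were higher in both lines, had an adjusted p of 0.591. Had both treated libraries been made in 1 batch, that batch and l-lactate cannot be told apart. The median log2 difference of the lncRNA PACs tested was -0.06 and that of all PACs 0.02.

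When the fit was restricted to PACs listed in all 4 libraries, 9 of 416 lncRNA PACs passed. The 4 that rose make 0.962% (0.883% of all such PACs) and the 5 that fell make 1.20% (0.405%). IGFL2-AS1, antisense in the IGFL gene cluster, was at 20.6 and 7.54 TPM in KYSE30 and 9.21 and 4.23 TPM in TE-1, l-lactate before control (log2 difference 1.15 ± 0.19, adjusted p = 0.00274). DLEU2, known as the host of miR-15a and miR-16-1, was at 11.7 and 5.39 TPM and at 4.25 and 1.83 TPM (0.94 ± 0.22, adjusted p = 0.0278). ENSG00000289194, which ends within 5000 nt past a coding gene, and ENSG00000261270, within a coding gene on the same strand, also rose. In each of these genes the l-lactate library was above its control in both lines. The fit favours PACs whose l-lactate effects are alike in the lines, so this adds no separate support.

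The 5 that fell in that fit were ENSG00000273026, the distal PAC of LINC00958, ELOA-AS1, the most upstream PAC of OIP5-AS1 and ATP2A1-AS1. ENSG00000273026 went from 7.003 to 1.81 TPM in KYSE30 and from 8.27 to 4.25 TPM in TE-1 (log2 difference -1.16 ± 0.23, adjusted p = 0.00911). LINC00958 went from 14.4 to 7.94 TPM and from 19.5 to 8.97 TPM (-0.91 ± 0.18, adjusted p = 0.00779). ELOA-AS1 went from 7.41 to 4.04 TPM and from 8.66 to 3.42 TPM. OIP5-AS1, an RNA conserved across vertebrates, had 4 PACs within a coding gene on the same strand, and this one was at 12.7 TPM in the KYSE30 control and 5.58 TPM with l-lactate, and at 7.31 and 4.01 TPM in TE-1. Its most distal and most abundant PAC was at 65.2, 61.7, 63.2 and 80.6 TPM. These 9 calls rest on the set of PACs tested, since none of them passed among all 16709.

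**Figure D2:**
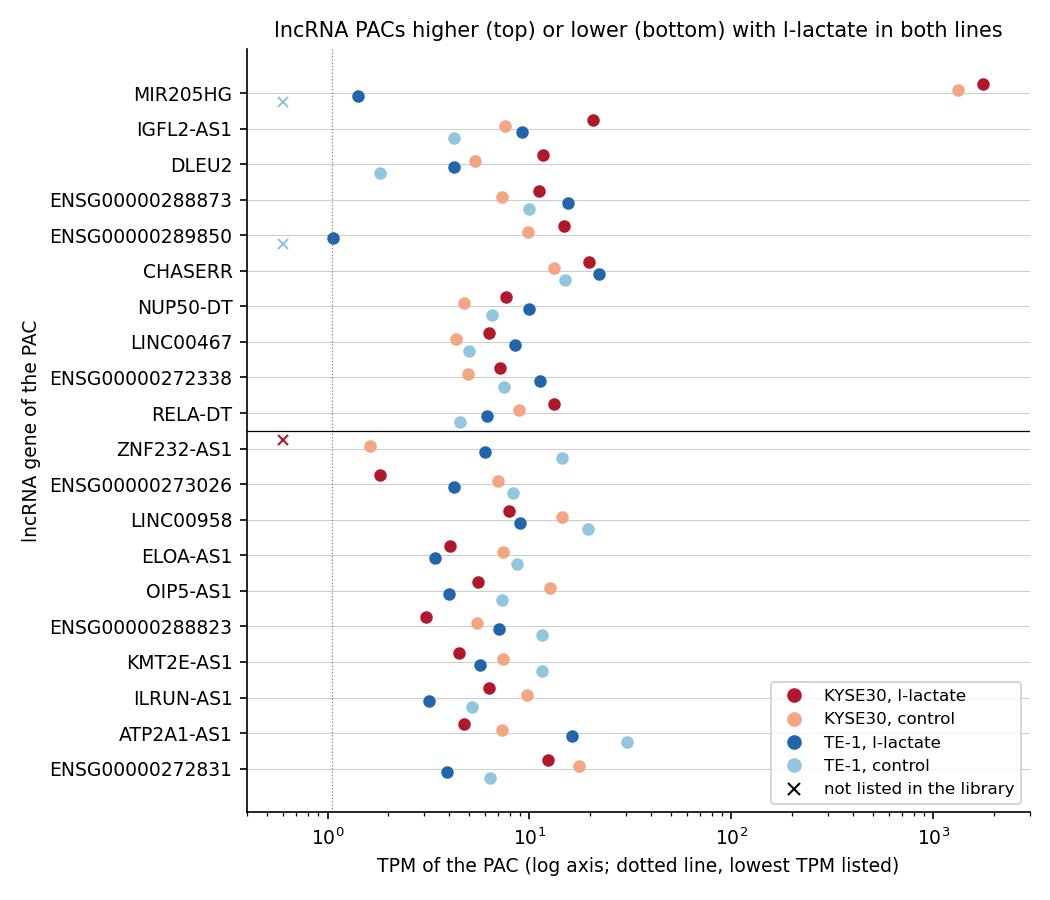
TPM (log axis) in each library of the lncRNA PACs with a mean TPM of at least 5 that were highest (upper 10) or lowest (lower 10) with l-lactate in both lines, ranked by the smaller of the 2 log2 ratios; crosses mark libraries that do not list the PAC. For IGFL2-AS1 the l-lactate points lie at 20.6 and 9.21 TPM and the control points at 7.54 and 4.23 TPM, so the lines differ in level but the ratio runs the same way; none of the 20 passed the adjusted p of 0.05 among all PACs.

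Within a line, the ratio of l-lactate to control has only a counting error. An exact 95% interval of the ratio lay above 1 for 39 and below 1 for 74 of the 644 lncRNA PACs that both KYSE30 libraries listed (6.06% and 11.5%, against 10.3% and 9.71% of all PACs). In TE-1 it lay above 1 for 58 of 584 (9.93%, against 16.4% of all PACs) and below 1 for 82 of them, where 10.5% of all PACs did so. These intervals cover counting error only and not the spread between cultures. In both lines it lay above 1 for 9 (2.16%, against 4.25% of all PACs) and below 1 for 15 (3.61%, against 2.69%) of the 416 PACs. With a fold of at least 2 on TPM + 1, 18 lncRNA PACs were higher and 45 lower in KYSE30 (2.15% and 5.37%, against 2.62% and 2.36%), and 35 were higher and 47 lower in TE-1 (4.18% and 5.61%, against 2.83% and 2.24%). Most of these were near the listing limit, since with a mean TPM of at least 5 only 3 and 5 were left in KYSE30 and 5 and 11 in TE-1.

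**Figure D3:**
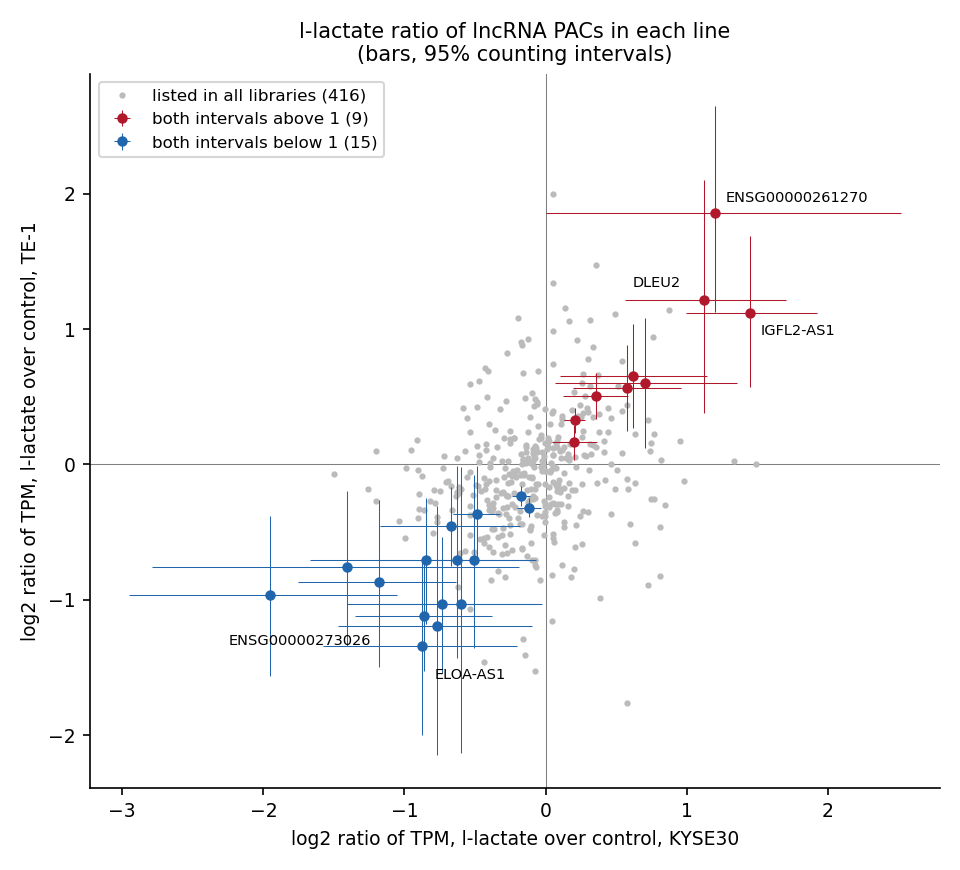
log2 ratio of TPM with l-lactate over control in KYSE30 (x) and TE-1 (y) for the 416 lncRNA PACs listed in all 4 libraries; bars are exact 95% counting intervals, drawn for PACs whose intervals exclude 1 in the same direction in both lines. The 9 such PACs above 1 include IGFL2-AS1, DLEU2 and ENSG00000261270, the 15 below 1 include ENSG00000273026 and ELOA-AS1, and most points lie near 0 on both axes.

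The 10 most abundant lncRNA PACs had l-lactate ratios between 0.802 and 1.35 in the lines that listed them in both libraries. SNHG29 had a ratio of 0.983 in KYSE30 (counting interval 0.969 to 0.997) and 1.02 in TE-1 (0.998 to 1.03). NORAD was lower in both lines, with ratios of 0.887 (0.849 to 0.926) and 0.851 (0.809 to 0.896), and so was SNHG25, at 0.922 and 0.802. SNHG6 was higher in both, at 1.15 (1.10 to 1.22) and 1.25 (1.18 to 1.33). MIR205HG and UCA1 were higher with l-lactate in KYSE30, with ratios of 1.33 (1.29 to 1.36) and 1.35 (1.30 to 1.41). None of these had an adjusted p under 0.658 in the fit over both lines. CHASERR, an RNA known to limit expression of its neighbour CHD2, lies within a coding gene annotation on the same strand and was at 19.7 and 13.2 TPM in KYSE30 and 22.2 and 15.0 TPM in TE-1, ratios of 1.49 and 1.48.

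Of the 357 lncRNA PACs with a mean TPM of at least 5, 190 had the same sign of the l-lactate difference in both lines (53.2%, against 54.1% of all PACs), 68 higher and 122 lower, where 30.6% of all PACs were higher and 23.5% lower in both. By class, the median log2 l-lactate difference was -0.00 for snoRNA hosts, 0.12 for microRNA hosts, -0.10 for antisense, -0.08 for divergent, -0.04 for intergenic and -0.07 for symbol-free genes, with 3, 2, 17, 7, 4 and 18 PACs at an unadjusted p under 0.05. No PAC of any class passed the adjusted threshold in this fit.

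The choice of poly(A) site within a lncRNA gene was followed in the 46 genes with at least 2 lncRNA PACs above 5 TPM, as the share of the gene's TPM in its most distal PAC. A value in both libraries was available for 36 genes in KYSE30 and 44 in TE-1. The distal share rose by at least 10 percentage points with l-lactate in 6 genes of KYSE30 (16.7%, against 4.43% of all genes with several PACs) and fell by as much in 0 (6.94%). In TE-1 it rose in 11 (25.0%, against 7.12%) and fell in 3 (6.82%, against 5.72%). An unlisted PAC entered these shares as 0, and with every PAC of the gene listed, 3 rises were left in KYSE30, and 7 rises and 2 falls in TE-1. The lack of falls in KYSE30 depended on the limit of 5 TPM. With PACs above 1 TPM, 12 of 81 genes rose and 9 fell in KYSE30, and 21 of 85 rose and 9 fell in TE-1. lncRNA genes have lower TPM than the others, and the part of counting error in the larger shares was not tested.

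Among these 46 genes, LINC00963 was the only one that rose by at least 10 points in both lines, and none fell by as much in both. With PACs above 1 TPM counted, 1 gene rose and 3 fell by as much in both lines. The distal PAC of LINC00963 was at 4.32 TPM in KYSE30 and 5.08 TPM in TE-1 with l-lactate, 19.3% and 21.4% of the gene. It was unlisted in both controls (limma, adjusted p = 0.327). MINCR passed 10 points in opposite directions: it went from 41.1% to 57.9% in KYSE30, and in TE-1 from 52.0% in the control to an unlisted distal PAC, which had been at 5.003 TPM. NBR2, which lies head to head with BRCA1, went from 34.6% (26.2% to 43.98%) to 53.2% (42.2% to 64.0%) in KYSE30, where the intervals overlapped, and its distal PAC was unlisted in TE-1. FZD10-AS1, antisense to a Wnt receptor gene, went from 35.5% (28.7% to 43.0%) to 67.4% (60.4% to 73.6%) in TE-1 and was not listed in KYSE30. RAB30-DT went from 23.9% to 69.0% in TE-1, and in KYSE30 from 76.9% to 73.5%. LINC00467 went up in both lines, from 21.3% to 26.9% and from 18.2% to 29.1%. Falls in both lines were smaller: LINC00958 went from 28.0% to 21.5% in KYSE30 and from 22.9% to 12.9% in TE-1, FGD5-AS1 from 67.0% to 59.3% and from 40.6% to 33.3%, and MFSD14CP from 18.4% to 12.4% and from 18.8% to 10.5%. SNHG16, with the most tags among these genes, stayed at 84.2% and 84.3% in KYSE30 and at 79.9% and 80.3% in TE-1.

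**Figure D4:**
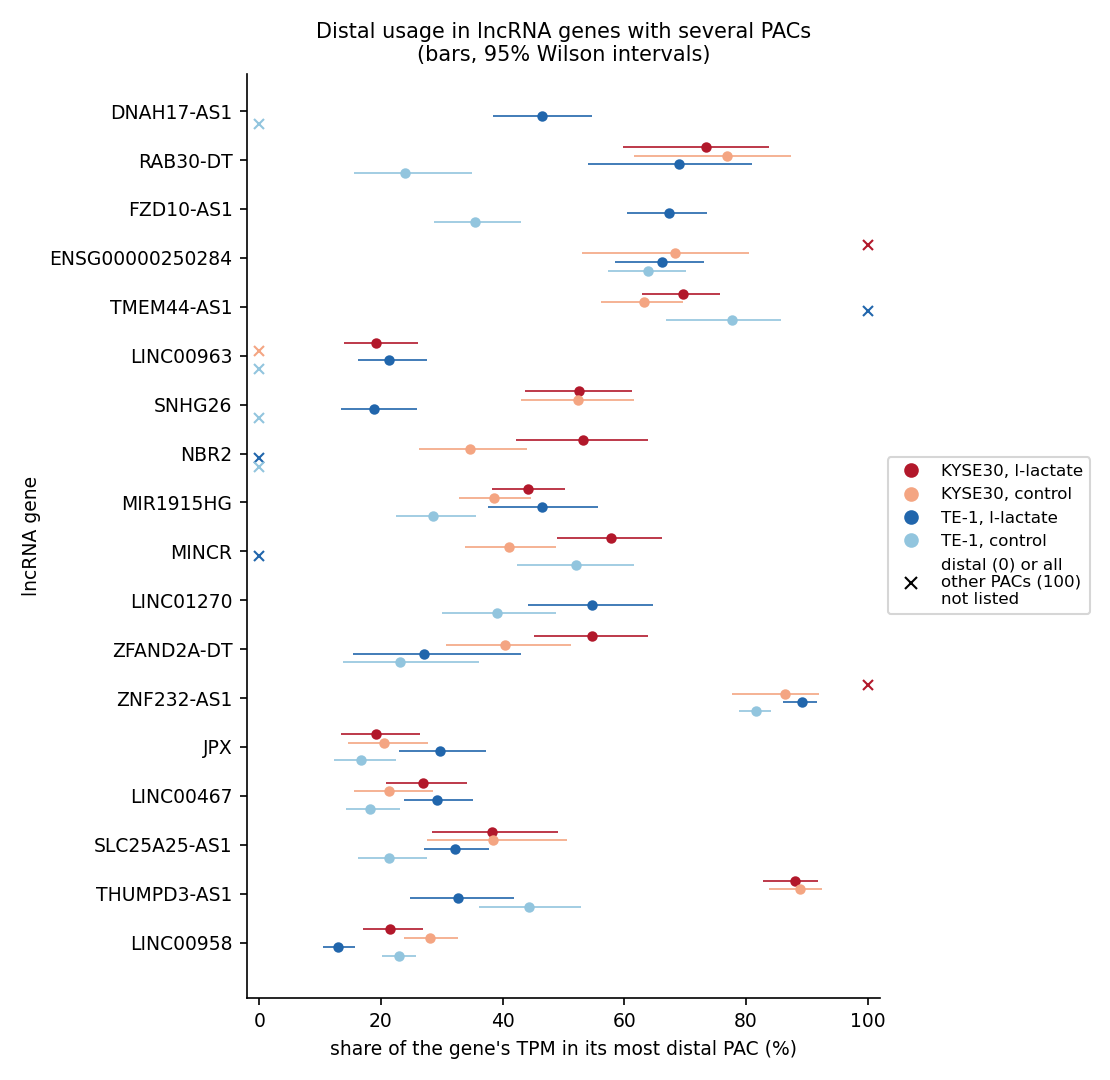
Share of a lncRNA gene's TPM in its most distal PAC (%), for the 18 genes where it changed by at least 10 percentage points in at least 1 line; each point is 1 library with its 95% Wilson interval, and crosses at 0 or 100 mark libraries where the distal PAC or all other PACs are unlisted, so no interval is drawn. LINC00963 moves from 0 to 19.3% and 21.4% with l-lactate, and in LINC00958 the share is lower with l-lactate in both lines.

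Between the control libraries of the lines, the distal share of lncRNA genes differed by at least 10 points in 19 of 34 genes, higher in TE-1 in 5 (14.7%, against 10.5% of all genes with several PACs) and lower in 14 (41.2%, against 24.9%). THUMPD3-AS1 was at 88.9% in KYSE30 and 44.4% in TE-1, and OLMALINC at 41.9% and 82.6%, although the 3′ end of OLMALINC has no unique 32-mer. Within a PAC, the dominant site moved more than 24 nt downstream with l-lactate in 7 of 317 lncRNA PACs of KYSE30 (2.21%, against 0.802% of all PACs) and upstream in 0 (0.627%). In TE-1, 1 of 308 moved downstream and 1 upstream (0.325% each, against 0.734% and 0.511%). CHASERR moved by 128 nt and LINC00963 by 70 nt downstream in KYSE30, whereas the dominant site kept its exact position in 295 PACs of each line.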

How the data were processed

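PAS-seq was done on 4 libraries, 1 per treatment and line. Per the study, the authors trimmed reads, aligned them to GRCh38 with HISAT2, clustered sites with CAGEr, removed weak single-site clusters and joined nearby ones. The deposited values, named TPM, are RPM values that the authors made as tags per library total without length correction. Whole tags were worked out from their steps and used for counting intervals only. PACs were placed on GENCODE 44, and an unlisted PAC entered tests as 0. limma 3.58.1 (R 4.3.3) was run on log2(TPM + 1) with line and treatment as terms (1 residual df, prior df 2.77), over PACs with a mean TPM of at least 1, with Benjamini-Hochberg adjustment at 0.05, and was tested on simulated data. Samples are separate libraries, and p-values measure only their spread. Named were the 10 highest PACs, the 10 largest line differences each way and the 10 l-lactate differences each way common to both lines (mean TPM of at least 5), genes past 10 points of distal share and the gene lists. Class lists follow gene symbols. Members and lists were chosen with earlier results of these data known. Alternatives were other pseudocounts, filters, scalings and PAC definitions. Python 3.11.15, pandas 2.3.3 and SciPy 1.17.1 were used.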

Additional observations from a re-analysis of the deposited data

Results flagged for a closer look

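In 4 lncRNA PACs the counting intervals of the l-lactate ratio lay on opposite sides of 1 in the lines. The difference between the lines was not tested, as each has 1 library per treatment. SNHG3 was at 66.6 and 57.2 TPM in KYSE30 and at 104 and 141 TPM in TE-1, l-lactate before control, and the log2 ratio was 0.66 higher in KYSE30. TMEM147-AS1 was at 18.8 and 14.4 TPM and at 5.43 and 10.8 TPM, with a log2 ratio 1.37 higher in KYSE30. ZFAS1 had ratios of 0.948 (0.911 to 0.985) and 1.03 (1.01 to 1.06), a log2 difference of -0.13 between the lines. ENSG00000226332 was at 22.3 and 29.8 TPM and at 16.2 and 11.4 TPM, a log2 difference of -0.92.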

How the results depend on the processing

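No paired analysis was possible because the labels give no replicate numbers to pair on, beyond the line term, which already sets each treated library against the control of its own line. The planned count tests with edgeR and DESeq2 were not run. The lncRNA PACs higher in TE-1 and KYSE30 numbered 244 and 334 of 838 in the main fit. With a mean TPM of at least 5 they numbered 129 and 140 of 357, closer to each other. Among PACs listed in all 4 libraries, where fewer PACs were tested as well, they numbered 116 and 148 of 416. The l-lactate fit gave 4 higher and 5 lower among PACs listed in all 4 libraries. Counts past 2-fold, higher and lower, were 1 and 7 in KYSE30 and 3 and 4 in TE-1 with a pseudocount of 5. With a ratio of 1.5 they were 36 and 92, and 63 and 80. With a mean TPM of at least 5 they were 3 and 5, and 5 and 11, of 357 lncRNA PACs. No shares over all PACs are given for these settings, so the counts only show how the numbers moved. A TPM above 5 left 593 lncRNA PACs, and counting AUUAAA with AAUAAA gave 80.5%. With PACs above 1 TPM the distal share rose in 12 and fell in 9 of 81 genes of KYSE30. It rose in 21 and fell in 9 of 85 genes of TE-1, and no share over all genes is given at that limit. In both lines it then rose in 1 gene and fell in 3, against 1 and 0 with PACs above 5 TPM. The shares of lncRNA PACs listed in 1 line alone changed order. They were 19.2% for KYSE30 and 15.1% for TE-1, but 7.28% and 10.6% with a mean TPM of at least 5. Setting unlisted PACs to the lowest listed TPM was chosen after seeing the data. No replicate within a line, the listing limit and low tag numbers limit the precision.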
